A study of Mus musculus with 15 samples.

Results

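The 40 genes described here act in the G2 and M phases of the cell cycle, when a cell that has copied its DNA enters mitosis, lines up and separates its chromosomes and divides. They were chosen by name, from what the genes are known to do, but with earlier results of these data known. Each was read from its brightest probe set that the array's annotation gives to 1 gene symbol. Of the 40 genes, 39 have such a probe set; Ccnb1 (cyclin B1) has none and carries no value. A gene was tested where the mean of any of the 5 groups exceeded log2 4.96, the median over probe sets. This held for 34 members and for 10964 of the 19938 genes with a probe set, and the members below that level were Nek2, Ttk, Kif2c, Hmmr and Anln. The members fall into 9 roles: mitotic entry, mitotic kinases, the spindle checkpoint with anaphase exit, the chromosomal passenger complex, the kinetochore with the centromere, mitotic kinesins, spindle assembly, chromosome condensation with the chromosome periphery, and cytokinesis.

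Mouse spleen was sorted for CD4+CD25+ T cells, most of which are regulatory T (Treg) cells, and their RNA was read on 15 Affymetrix arrays. The genotypes were wild type (WT, 6 arrays), Ikzf2-/- (3), Ikzf4-/- (3) and dKO cells, which lack both genes (3). Helios (from Ikzf2) and Eos (from Ikzf4) are Ikaros family transcription factors made by Treg cells. The labels list no treatment, and the strain, the age of the mice, the deleted exons and whether an array holds 1 animal or a pool are stated in no label read here. Ikzf4-/- and dKO arrays were compared with WT 1 to 3 (set 1, 9 arrays), and Ikzf2-/- arrays with WT 4 to 6 (set 2, 6 arrays). As nothing says that arrays of a group came from separate animals, each p-value reflects only how far the arrays of a group scatter, which may be technical.

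Mitosis is driven by the kinase Cdk1 bound to cyclins A and B. The condensed chromosomes are then caught by spindle microtubules at their kinetochores, under a checkpoint that holds back the anaphase-promoting complex until every chromosome is attached. Most of these transcripts peak in G2 and M, so their level is widely read as a mark of dividing cells. Treg cells are known to hold a larger dividing fraction than other resting CD4+ T cells. In RNA of a bulk sort, more cells in mitosis and more transcript per mitotic cell cannot be told apart.

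Many genes of this group are known to be held silent outside G2 and M through a promoter element named the cell cycle genes homology region (CHR), which is bound by the MuvB core of the DREAM complex, and to be activated with the help of nearby CCAAT boxes, which bind NF-Y. RefSeq promoter windows (GRCm38.p6, 250 bases before to 50 bases after the annotated start) were available for 35 of the 40 members, that is all but Ccna2, Aurkb, Kif20a, Tpx2 and Dlgap5. The letters TTTGAA or TTCGAA, on either strand, stood in the window of 28 of the 35 (80.0%), against 19.05% of the 15614 genes with a probe set and a window, and 19.23% of all 32851 windows of that length. CCAAT, on either strand, stood in 27 (77.14%), against 41.69% of those genes and 37.41% of all windows. Both stood in 24 (68.57%), against 7.69% of genes, and at least 2 CCAAT matches in 20 (57.14%), against 14.26%. Within 50 bases of the start, on either side, the CHR letters stood in 25 of the 35 (71.43%) and in 5.00% of the 15614 genes. A CHR and a CCAAT match can share a letter where their ends meet, and a match is a run of letters, not a shown site of binding.

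The windows below are those of the members with CHR letters and the smallest p in Ikzf2-/- against WT (Kif22, Mis18a, Racgap1 and Ndc80), followed by Ccnb2, the next in that order, which was added after its sequence was seen because it carries 3 CCAAT matches. All lie on the minus strand and are written 5′ to 3′ on the strand of the gene, with CHR and CCAAT letters (or TTCAAA and ATTGG, the same letters read on the other strand) in capitals.
Kif22, chr7:127042371-127042670: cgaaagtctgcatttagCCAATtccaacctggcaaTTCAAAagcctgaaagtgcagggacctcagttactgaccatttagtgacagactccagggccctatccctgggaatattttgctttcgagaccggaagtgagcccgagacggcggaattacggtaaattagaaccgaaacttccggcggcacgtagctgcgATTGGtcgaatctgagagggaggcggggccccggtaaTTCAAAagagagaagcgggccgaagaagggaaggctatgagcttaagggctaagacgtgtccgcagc
Mis18a, chr16:90727322-90727621: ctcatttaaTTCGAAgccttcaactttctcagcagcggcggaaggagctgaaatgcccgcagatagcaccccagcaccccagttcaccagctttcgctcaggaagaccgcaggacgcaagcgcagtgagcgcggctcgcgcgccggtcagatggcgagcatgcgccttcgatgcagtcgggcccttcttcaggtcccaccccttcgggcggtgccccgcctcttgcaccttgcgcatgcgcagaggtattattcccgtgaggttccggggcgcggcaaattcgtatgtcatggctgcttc
Racgap1, chr15:99651607-99651906: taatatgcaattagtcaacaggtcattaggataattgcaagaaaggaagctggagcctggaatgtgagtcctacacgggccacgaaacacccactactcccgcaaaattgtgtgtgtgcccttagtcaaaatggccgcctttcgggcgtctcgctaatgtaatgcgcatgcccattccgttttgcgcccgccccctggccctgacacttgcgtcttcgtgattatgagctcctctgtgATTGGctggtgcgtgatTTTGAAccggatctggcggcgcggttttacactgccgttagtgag
Ndc80, chr17:71526808-71527107: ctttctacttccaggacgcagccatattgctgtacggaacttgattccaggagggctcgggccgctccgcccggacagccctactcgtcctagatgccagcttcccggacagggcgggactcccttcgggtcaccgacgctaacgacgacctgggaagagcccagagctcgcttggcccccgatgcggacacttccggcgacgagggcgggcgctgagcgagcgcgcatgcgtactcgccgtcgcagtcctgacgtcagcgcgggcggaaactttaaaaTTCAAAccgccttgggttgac
Ccnb2, chr9:70421505-70421804: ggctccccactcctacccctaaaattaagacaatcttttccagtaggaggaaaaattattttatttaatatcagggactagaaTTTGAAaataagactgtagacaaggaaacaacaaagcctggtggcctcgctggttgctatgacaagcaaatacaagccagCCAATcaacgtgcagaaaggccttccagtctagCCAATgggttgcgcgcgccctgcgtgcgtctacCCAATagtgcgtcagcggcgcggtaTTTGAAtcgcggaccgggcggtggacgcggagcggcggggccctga
In Kif22, a chromosome-arm kinesin gene, CHR matches start at -215 and -17 bases from the start and CCAAT matches at -233 and -54. The Racgap1 window has a CCAAT match at -12 and CHR letters at base 6. Ccnb2 shows 3 CCAAT matches, at -87, -54 and -21, and CHR letters at -167 and at base 5. The Mis18a window holds CHR letters far upstream, at -241, and no CCAAT, and that of Ndc80 holds CHR letters at base 30 and no CCAAT. The DNA replication (G1/S) genes, which peak earlier in the cycle, had CHR letters in 23.08% of 39 windows and CCAAT in 58.97%.

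The values are log2 signals, on which a difference of 1 is a doubling. Array medians lay between log2 4.82 and 5.01, and the 39 members between 3.73 and 9.04. Of the markers of the sort, Cd4 lay between 8.78 and 10.05 and Il2ra (CD25) between 10.23 and 11.10 over all arrays. The Treg cell gene Foxp3 lay between 10.10 and 11.16, and Ikzf2-/- 2 was lowest for each of these genes. Il2ra read 10.83, 10.23 and 10.43 in Ikzf2-/- and 10.80, 10.74 and 10.64 in WT 4 to 6. Ikzf2 read 10.06, 9.14 and 9.22 in Ikzf2-/- against 10.25, 10.38 and 10.38 in WT 4 to 6, and 10.11, 10.16 and 10.59 in dKO against 10.46, 10.74 and 10.76 in WT 1 to 3. Ikzf4 read 8.22, 8.13 and 8.19 in Ikzf4-/-, 8.20, 8.07 and 8.11 in dKO and 7.83, 8.07 and 8.02 in WT 1 to 3, so it was not lower in either group that lacks it by label. No label tells whether these probes lie in the deleted exons, so the signals do not settle the labels, and each group named below is the group labelled so. Array WT 1 stood apart from the rest of set 1 in B cell and neutrophil markers (mean log2 6.88 and 6.35, against 4.76 to 4.99 and 4.18 to 5.24), and Ikzf2-/- 3 from the rest of set 2 (7.88 and 7.90, against 5.24 to 6.22 and 4.75 to 5.92).

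The mean over the 39 measured members was taken on each array as a description. In set 2 it was 5.60, 5.46 and 5.35 in WT 4 to 6 and 6.04, 5.68 and 6.70 in Ikzf2-/- cells. Each Ikzf2-/- array thus lay above each WT array of its set, by a group difference of 0.67 between 6.14 ± 0.51 and 5.47 ± 0.12 (SD, n = 3 each). In set 1 it was 5.95, 6.11 and 5.75 in WT 1 to 3, 5.63, 6.15 and 5.72 in Ikzf4-/- and 5.88, 6.56 and 6.37 in dKO cells. The group means were 5.94 ± 0.18, 5.83 ± 0.28 and 6.27 ± 0.35 (SD, n = 3 each), with dKO 1 inside the WT range and dKO 2 and 3 above it. The array WT 1, high in B cell markers, lay between the other WT arrays. The array Ikzf2-/- 3, also high in them, was the highest of its set in 39 of 39 members, while Ikzf2-/- 1 exceeded every WT array of the set in 38 and Ikzf2-/- 2 in 18. In set 1, dKO 2 exceeded every WT array in 33 members, dKO 3 in 29 and dKO 1 in 2. The corresponding numbers for Ikzf4-/- 1, 2 and 3 were 2, 22 and 1, and Ikzf4-/- 1 was the lowest array of the set in 20 members. How many of all genes did so on each array was not counted, so these numbers describe the members without a background.

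**Figure D1:**
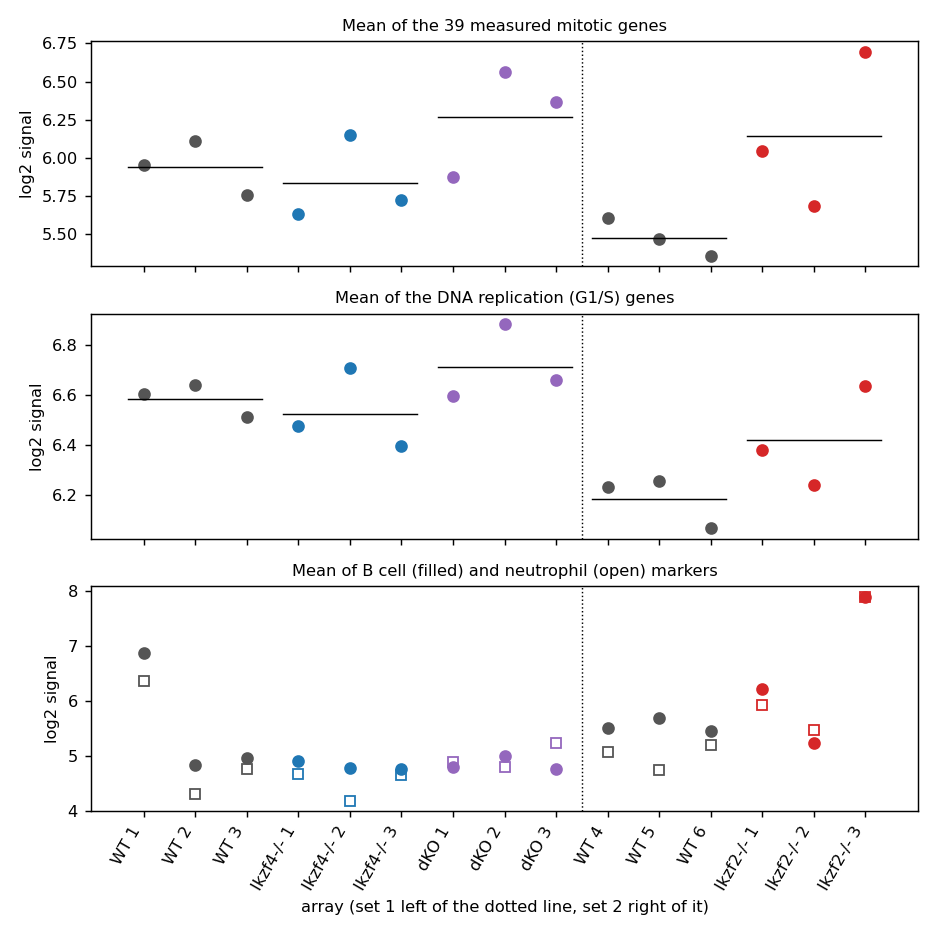
Mean log2 signal on each array (x axis, set 1 left of the dotted line) of the 39 measured mitotic genes (top), of the DNA replication genes (middle), and of B cell markers (filled circles) and neutrophil markers (open squares, bottom); black lines are group means. The top panel shows Ikzf2-/- 3 at 6.70, dKO 2 at 6.56 and WT 6 at 5.35, and the bottom panel shows WT 1 and Ikzf2-/- 3 above the other arrays of their sets.

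The question asked of set 2 is how the loss of Helios alone changes these transcripts. All 39 measured members had a higher mean in Ikzf2-/- than in WT 4 to 6. In 18 of them every knockout array lay above every WT array, where 8.23% of all 19938 genes did so. Cyclin B2 differed most, with 2.59 times the WT signal, followed by the proliferation marker Ki-67 (Mki67, 2.11 times) and the spindle protein gene Nusap1 (2.06 times). Limma called 0 of the 34 tested members at an adjusted p threshold of 0.05, where it called 0.0638% of all genes. At an unadjusted p threshold of 0.05, 23 of the 34 were higher and 0 lower, where 10.9% of all genes were higher. Among tested members 17 had groups that did not overlap, where 10.7% of all genes did so upward. The median log2 difference of the 34 was 0.67 and that of all genes 0.020. Since dim members may have entered through the group where they were high, the same was read without the filter: 26 of 39 members were higher, where 8.07% of 19938 genes were. Of the 25 members above the filter in all 5 groups 18 were higher, with a median of 0.76. The share of all genes filtered in that way was not taken. With the filter at the 60th percentile 20 of 28 members were higher, where 12.2% of 8983 genes were. Without Ikzf2-/- 3 the count was 13 of 34, where 8.80% of genes were higher, and the median was 0.45 with 33 of 34 positive. At adjusted p 7 members passed without Ikzf2-/- 1 and 6 without Ikzf2-/- 2. The share of all genes at adjusted p was not taken there. At the unadjusted threshold 20 and 31 of 34 members were higher in these settings, where 12.6% and 18% of genes were. The count of 23 became 15 with the B cell marker mean as a covariate (9.45% of genes) and 12 with all 6 WT arrays pooled (2.71%).

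The question for Ikzf4-/- is what the loss of Eos alone does. Here 11 of 39 members had a higher mean than in WT 1 to 3, and the median log2 difference of the 34 tested was -0.095, that of all genes being 0.0060. Limma called 0 of them at adjusted p, as it called 0% of all genes. At the unadjusted threshold 0 were higher and 1 was lower, the cytokinesis gene Racgap1, where 1.16% of all genes were higher and 1.02% lower. With the replicate number as a block, Racgap1 was again the 1 lower member. Mis18a was the 1 higher of 34 (0.29, SE 0.12), near the 2.64% of genes higher there. Neither passed adjusted p. Racgap1 was also the 1 of 34 tested members (2.94%) with every Ikzf4-/- array below every WT array. That share is near the 2.92% of all genes that lay so, and so no result about the members. The call of Racgap1 was lost without any 1 of WT 1, WT 2, WT 5, Ikzf4-/- 1, Ikzf4-/- 3 or dKO 3. Without Ikzf4-/- 2, 3 members were lower, with no share of all genes taken. A count of 1 member higher arose without WT 1 (1.57% of genes), without WT 2 (1.45%) or without Ikzf2-/- 3 (1.33%). The median was -0.31 without Ikzf4-/- 2, -0.21 without WT 3, -0.045 without Ikzf4-/- 3, -0.011 without Ikzf4-/- 1 and -0.0095 without WT 2. It turned to 0.015 with the B cell covariate and to 0.15 with pooled WT arrays, where all genes had 0.20; over all genes the median of WT 4 to 6 minus WT 1 to 3 was -0.38.

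In dKO cells against the same WT arrays, 37 of 39 members had a higher mean. The tested members had a median log2 difference of 0.37, against 0.0039 for all genes. The checkpoint kinase gene Bub1 showed 0.85, the cytokinesis gene Ect2 0.62, the kinetochore gene Spc25 0.56 and the kinesin gene Kif22 0.40. Limma called 0 of the 34 at adjusted p, where 0.0638% of all genes were called, and these 4 at the unadjusted threshold, where 2.39% of all genes were higher. In Kif22 and Spc25 every dKO array lay above every WT array, where 5.34% of all genes did. Without the filter 3 of 39 members were higher at the unadjusted threshold, where 1.85% of genes were. Of the 4 called members, only Kif22 lay above the filter in all 5 groups, where it was the 1 called of 25, without a share of all genes taken. With the filter at the 60th percentile 1 of 28 was higher, where 2.44% of genes were. The count of 4 became 15 without dKO 1 (2.17% of genes, median 0.60) and 8 without Ikzf2-/- 3 (2.64%). It was 2 without WT 3 (1.33%) or without dKO 2 (1.82%, median 0.20). With the B cell marker mean as a covariate it was 17 (4.70% of genes), and with all 6 WT arrays pooled 22 (15.3%). With the signal of Eif2s3y, a Y-linked gene, as a covariate it was 2 (3.18%). That gene read 7.94 and 8.81 on dKO 2 and 3 and 8.17 on WT 3, and 3.06 to 3.09 on dKO 1, WT 1 and WT 2. Its part in the difference was not tested further.

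**Figure D2:**
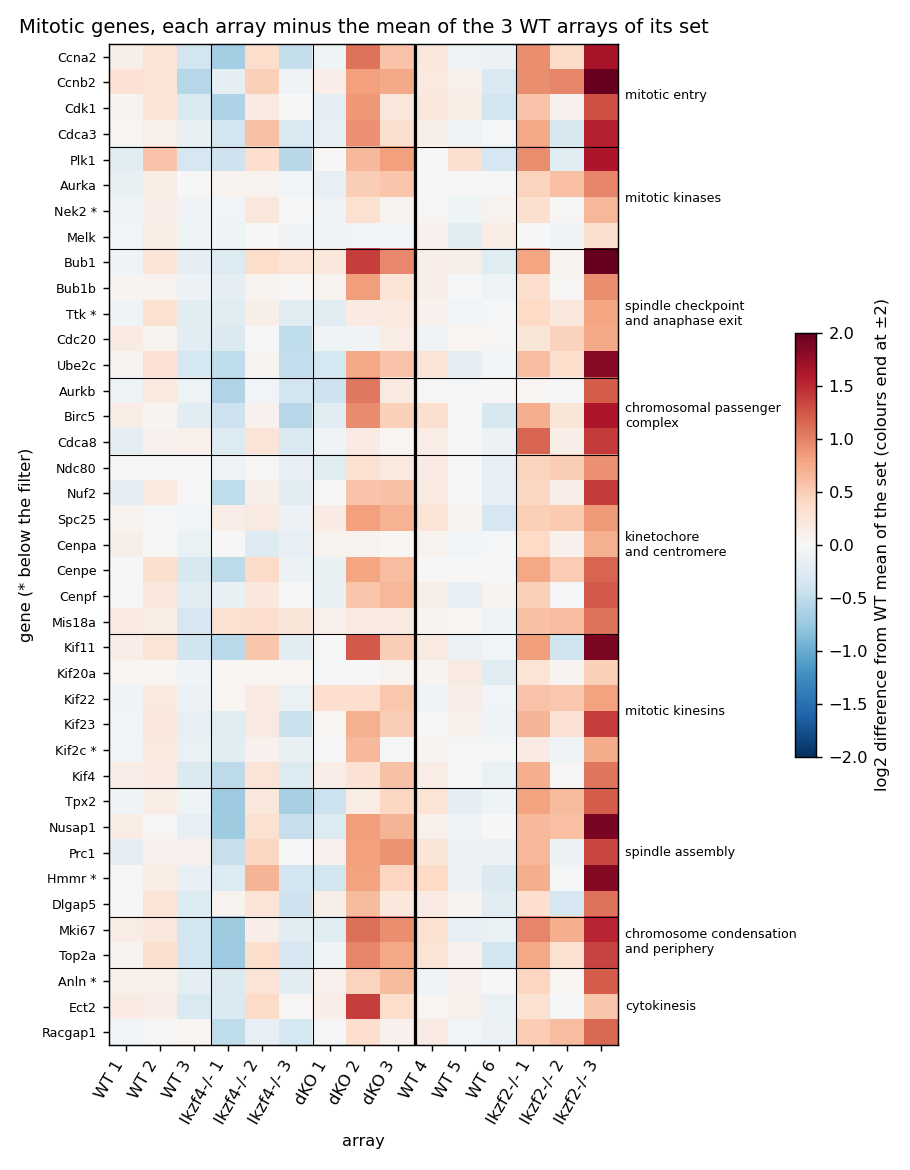
Log2 signal of each measured mitotic gene (rows, grouped by role) on each array (columns) minus the mean of the 3 WT arrays of its set, in red where higher and blue where lower; colours end at ±2, and an asterisk marks a gene below the filter. Ikzf2-/- 3 is red in every row, with Ccnb2 highest at 2.21 above the WT mean, dKO 2 and dKO 3 are red in most rows, and Ikzf4-/- 1 and 3 are mostly blue.

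Loss of Helios on top of Eos was read from dKO against Ikzf4-/- arrays of the same replicate number. The mean over the 39 members was higher in dKO by 0.25, 0.41 and 0.64 in numbers 1, 2 and 3. Ki-67 differed by 0.86 (SE 0.28), Top2a, which untangles sister DNA before they part, by 0.80 (SE 0.22), and cyclin A2 by 0.78 (SE 0.21). Of the 39 members 28 had 3 positive paired differences and 1 had 3 negative ones. Of all 19938 genes 11.53% had 3 positive and 10.65% had 3 negative differences. Limma called 0 of the 34 tested members at adjusted p, where 0.0182% of all genes were called. It found 23 higher and 0 lower at the unadjusted threshold, where 3.98% of all genes were higher, and 25 had 3 positive differences, where 13.7% of all genes did. The median was 0.49, against -0.0015 for all genes. Without the filter 24 of 39 were higher, where 3.11% of genes were. Of the 25 members above the filter in all groups 17 were, again without a share of all genes. With the filter at the 60th percentile 19 of 28 were, where 4.27% of genes were. The count of 23 became 8 with no replicate block (1.79% of genes), 10 with the Eif2s3y signal as a covariate (3.31%), 11 without dKO 3 (3.06%), 12 without dKO 2 (3.53%) and 14 without Ikzf4-/- 3. Eif2s3y, a Y-linked gene, read 7.94 to 8.81 on WT 3, Ikzf4-/- 3, dKO 2 and dKO 3 and 2.87 to 3.09 elsewhere, so number 2 sets arrays that differ in it side by side. The Ikzf2 probe set itself differed by -0.38 (SE 0.086) in this comparison (adjusted p = 0.432).

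**Figure D3:**
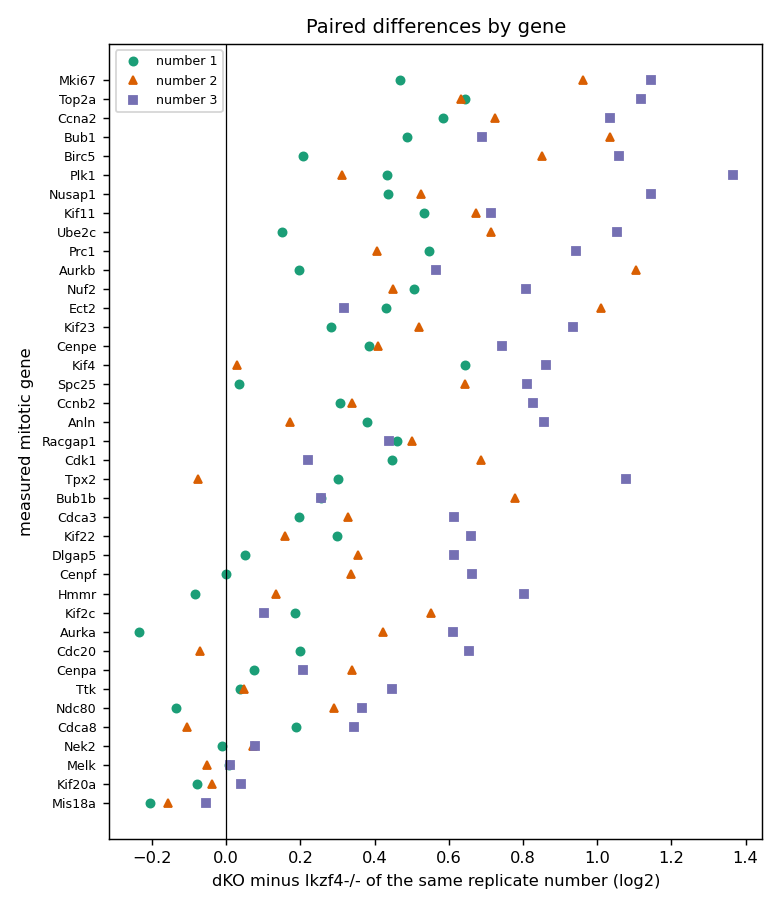
Difference in log2 signal between dKO and the Ikzf4-/- array of the same replicate number (x axis) for each of the 39 measured mitotic genes (y axis, ordered by their mean difference); each symbol is 1 pair. Most symbols lie right of 0, number 3 is often farthest right, and Mis18a at the bottom has all 3 left of 0.

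Cyclin A2, cyclin B2, Cdk1 and Cdca3, which helps to remove the mitotic inhibitor Wee1, form the group of mitotic entry, with median log2 differences of 0.82 in Ikzf2-/-, -0.085 in Ikzf4-/- and 0.44 in dKO against WT. Ccnb2, a cyclin that binds Cdk1, read 7.03, 6.93 and 6.53 in WT 4 to 6 and 7.77, 7.80 and 9.04 in Ikzf2-/-. The groups did not overlap, and the difference was 1.38 (SE 0.33) with an adjusted p of 0.0893 in limma. In set 1 Ccnb2 read 7.69, 7.68 and 6.84 in WT, 7.23, 7.88 and 7.34 in Ikzf4-/- and 7.53, 8.22 and 8.16 in dKO. The arrays dKO 2 and 3 lay above every WT array and dKO 1 within their range. Cyclin A2, which serves in S phase and G2, was higher at the unadjusted threshold in Ikzf2-/- (0.99, SE 0.35), with no overlap, and in dKO against Ikzf4-/-. Cdk1 showed 0.64 (SE 0.32) in Ikzf2-/-, which did not reach that threshold, and 0.45 (SE 0.19) in dKO against Ikzf4-/-, which did. For Cdca3 the corresponding values were 0.66 (SE 0.38) and 0.38 (SE 0.19), and neither reached it.

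Among the mitotic kinases Aurka, which works at centrosomes and spindle poles, read 6.08, 6.08 and 6.07 in WT 4 to 6 and 6.52, 6.68 and 7.06 in Ikzf2-/-. Its WT arrays were nearly level and every knockout array lay above them (0.68, SE 0.17, adjusted p = 0.0932). Its set 1 values were 6.19, 6.49 and 6.33 in WT, 6.41, 6.41 and 6.28 in Ikzf4-/- and 6.17, 6.83 and 6.89 in dKO, where dKO 1 was the lowest of the 9 arrays and dKO 3 the highest. Plk1, the polo-like kinase of mitotic entry and exit, was higher in dKO than in Ikzf4-/- (0.70, SE 0.21, unadjusted threshold), with paired differences of 0.43, 0.31 and 1.37. Its difference in Ikzf2-/- was 0.77 (SE 0.40) and did not reach it, and Ikzf2-/- 2 read 4.45, inside the WT range. Melk, above the filter in 3 groups, showed 0.088 (SE 0.12) in Ikzf2-/- and -0.065 (SE 0.12) in dKO. Nek2, which splits centrosomes, lay below the filter and was 0.34 higher in Ikzf2-/- and 0.045 higher in dKO than in Ikzf4-/-.

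The spindle checkpoint genes Bub1, Bub1b and Ttk encode kinases or kinase-like proteins that sense unattached kinetochores, and Cdc20 and Ube2c serve the anaphase-promoting complex that the checkpoint restrains. Ube2c, the ubiquitin-conjugating enzyme of that complex, read 6.75, 6.30 and 6.43 in WT 4 to 6 and 7.12, 6.85 and 8.32 in Ikzf2-/-. No array of the groups overlapped (0.93, SE 0.35, adjusted p = 0.206). In set 1 Ube2c read 7.23, 7.46 and 6.82 in WT, 6.67, 7.23 and 6.68 in Ikzf4-/- and 6.82, 7.94 and 7.74 in dKO, and the 3 paired differences of dKO and Ikzf4-/- were 0.15, 0.71 and 1.05. Cdc20, the activator of the complex, read 5.38, 5.49 and 5.47 in WT 4 to 6 and 5.70, 5.91 and 6.21 in Ikzf2-/-, again with no overlap (0.49, SE 0.15). In set 1 it read 6.30, 6.21 and 5.92 in WT, 5.85, 6.14 and 5.64 in Ikzf4-/- and 6.05, 6.07 and 6.29 in dKO. Its dKO arrays thus lay within the WT range, at a difference of -0.0028 (SE 0.15). Bub1 read 4.42, 4.40 and 4.03 in WT 4 to 6, 5.08, 4.36 and 6.32 in Ikzf2-/-, 4.27, 4.63 and 4.16 in WT 1 to 3, 4.07, 4.70 and 4.63 in Ikzf4-/- and 4.56, 5.73 and 5.31 in dKO. It lay above the filter only in the Ikzf2-/- and dKO groups, highest at 6.32 in Ikzf2-/- 3 and 5.73 in dKO 2, so its entry into the tests rests on those groups. The difference was 0.97 (SE 0.39) in Ikzf2-/-, 0.85 (SE 0.39) in dKO against WT and 0.74 (SE 0.17) against Ikzf4-/-. Bub1b showed 0.43 (SE 0.21) in Ikzf2-/-, below the threshold of the test, and 0.43 (SE 0.14) in dKO against Ikzf4-/-, past the unadjusted one, and Ttk, below the filter, showed 0.47 and 0.18.

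Aurora B (Aurkb), survivin (Birc5) and borealin (Cdca8) are subunits of the chromosomal passenger complex, which corrects faulty attachments and moves to the midzone at anaphase. Birc5 read 6.92, 6.59 and 6.27 in WT 4 to 6 and 7.31, 6.84 and 8.21 in Ikzf2-/-. Ikzf2-/- 2 lay between WT 4 and WT 5, so the groups overlapped (0.86, SE 0.33, adjusted p = 0.212). In set 1 Birc5 read 7.32, 7.23 and 6.97 in WT, 6.76, 7.26 and 6.59 in Ikzf4-/- and 6.96, 8.11 and 7.65 in dKO, with paired differences of 0.21, 0.85 and 1.06. Cdca8 read 5.53, 5.34 and 5.25 in WT 4 to 6 and 6.54, 5.51 and 6.77 in Ikzf2-/-, where arrays 1 and 3 were more than 1 above every WT array and array 2 was level with WT 4. Its set 1 values were 6.12, 6.40 and 6.40 in WT, 6.04, 6.57 and 6.01 in Ikzf4-/- and 6.23, 6.47 and 6.35 in dKO, a range in which the groups overlapped. The difference was 0.90 (SE 0.25) in Ikzf2-/- and 0.041 (SE 0.25) in dKO. Aurkb in set 2 was high on 1 array only, at 6.94 on Ikzf2-/- 3 against 5.68 to 5.76 on the other 5, and its paired differences in set 1 were 0.20, 1.11 and 0.57.

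The kinetochore and centromere group had 6 of 7 members higher at the unadjusted threshold in Ikzf2-/-, where 10.9% of all genes were. The median was 0.62, and Cenpf (0.56, SE 0.27) was the exception. Against WT, dKO had 1 of the 7 higher (2.39% of all genes) and Ikzf4-/- 0 (1.16%). Ndc80, Nuf2 and Spc25 are subunits of the Ndc80 complex, which holds the microtubule. Ndc80 read 7.03, 6.85 and 6.68 in WT 4 to 6 and 7.31, 7.35 and 7.76 in Ikzf2-/-, without overlap (0.62, SE 0.15, adjusted p = 0.088). The set 1 values were 7.34, 7.35 and 7.30 in WT, 7.22, 7.35 and 7.16 in Ikzf4-/- and 7.09, 7.64 and 7.52 in dKO. The WT arrays were close to each other there, and dKO arrays lay on either side of them (0.087, SE 0.15). Nuf2 read 4.80, 4.62 and 4.47 in WT 4 to 6 and 5.04, 4.76 and 6.03 in Ikzf2-/-, and 5.51, 5.89 and 5.68 in WT 1 to 3, 5.18, 5.81 and 5.47 in Ikzf4-/- and 5.68, 6.26 and 6.28 in dKO. Its paired differences of 0.51, 0.45 and 0.81 gave one of the smallest p among the members in that comparison (0.59, SE 0.095, adjusted p = 0.199). Spc25 read 5.18, 4.97 and 4.56 in WT 4 to 6 and 5.38, 5.42 and 5.75 in Ikzf2-/-, and 5.15, 5.07 and 5.03 in WT 1 to 3, 5.22, 5.26 and 4.97 in Ikzf4-/- and 5.25, 5.90 and 5.78 in dKO. Both knockouts that lack Helios lay wholly above the WT arrays of their sets, by 0.62 (SE 0.18) and 0.56 (SE 0.18), and Ikzf4-/- did not (0.067, SE 0.18).

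Cenpa, the histone H3 variant that marks the centromere, read 7.17, 7.05 and 7.07 in WT 4 to 6 and 7.50, 7.18 and 7.81 in Ikzf2-/-. All 3 knockout arrays were above WT, Ikzf2-/- 2 by the least (0.40, SE 0.13, adjusted p = 0.16). In set 1 Cenpa read 7.80, 7.70 and 7.55 in WT, 7.68, 7.42 and 7.52 in Ikzf4-/- and 7.76, 7.76 and 7.73 in dKO. Mis18a, needed to load Cenpa onto centromeres after mitosis, stood highest in Ikzf4-/- cells in set 1. It read 7.02, 6.99 and 6.50 in WT, 7.14, 7.18 and 7.07 in Ikzf4-/- and 6.93, 7.02 and 7.02 in dKO, so that every Ikzf4-/- array lay above every WT array (0.29, SE 0.14, not past the unadjusted threshold, but past it with the replicate block) and all 3 paired differences were below 0 (-0.20, -0.16 and -0.053). In set 2 it read 6.08, 6.07 and 5.94 in WT and 6.62, 6.65 and 7.12 in Ikzf2-/-, without overlap (0.77, SE 0.14, adjusted p = 0.0649). Cenpe, a kinesin that carries chromosomes to the spindle equator, was higher past the unadjusted threshold in Ikzf2-/- (0.81, SE 0.26) and in dKO against Ikzf4-/- (0.51, SE 0.18).

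Kinesins move along microtubules and drive the spindle. Kif22, which pushes chromosome arms outward, had the smallest p of all members in both comparisons of Helios-deficient cells with WT. It read 5.49, 5.70 and 5.51 in WT 4 to 6 and 6.14, 6.11 and 6.38 in Ikzf2-/-, a difference of 0.64 (SE 0.11) and 1.56 times the signal (adjusted p = 0.0649). On the set 1 arrays it read 5.75, 6.01 and 5.70 in WT, 5.86, 5.99 and 5.70 in Ikzf4-/- and 6.16, 6.15 and 6.35 in dKO. All 3 dKO arrays were above every WT and Ikzf4-/- array (0.40, SE 0.11 against WT, adjusted p = 0.668). Kif11, the kinesin that drives spindle poles apart, read 5.94, 5.64 and 5.70 in WT 4 to 6 and 6.59, 5.36 and 7.65 in Ikzf2-/-. Its knockout arrays were scattered, with array 2 below every WT array and array 3 far above them (0.77, SE 0.46, not past the unadjusted threshold). In set 1 Kif11 read 6.57, 6.71 and 6.05 in WT, 5.90, 6.99 and 6.23 in Ikzf4-/- and 6.43, 7.67 and 6.94 in dKO, and its paired differences were 0.53, 0.67 and 0.71. Kif23, a subunit of centralspindlin at the midzone, read 5.57, 5.67 and 5.47 in WT 4 to 6 and 6.25, 5.87 and 6.96 in Ikzf2-/-, without overlap. Its set 1 values were 5.87, 6.12 and 5.75 in WT, 5.67, 6.10 and 5.47 in Ikzf4-/- and 5.95, 6.62 and 6.40 in dKO. The difference was 0.78 (SE 0.24) in Ikzf2-/- and 0.58 (SE 0.13) in dKO against Ikzf4-/-. Kif4, a chromosome-bound kinesin, showed 0.61 (SE 0.24) and 0.51 (SE 0.20) in the same comparisons, both past the unadjusted threshold, and Kif20a, which acts in late mitosis, 0.27 (SE 0.11), past it, and -0.025 (SE 0.064), which was not. The microtubule-shortening Kif2c, below the filter, was 0.27 and 0.28 higher.

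Of the spindle assembly genes Nusap1, which bundles spindle microtubules, read 5.61, 5.41 and 5.50 in WT 4 to 6 and 6.15, 6.10 and 7.40 in Ikzf2-/-. Every knockout array was above every WT array (1.04, SE 0.35, adjusted p = 0.168). Set 1 arrays read 6.30, 6.18 and 6.00 in WT, 5.45, 6.47 and 5.69 in Ikzf4-/- and 5.88, 6.99 and 6.84 in dKO, and its paired differences were 0.44, 0.53 and 1.15. Tpx2, the activator of Aurora A on the spindle, read 5.02, 4.58 and 4.66 in WT 4 to 6 and 5.55, 5.38 and 5.97 in Ikzf2-/-, again without overlap (0.88, SE 0.26). In set 1 it read 5.58, 5.79 and 5.56 in WT, 4.92, 5.87 and 4.98 in Ikzf4-/- and 5.22, 5.80 and 6.06 in dKO. Ikzf4-/- 1 and 3 were low and Ikzf4-/- 2 was above every WT array, so the groups overlapped (-0.39, SE 0.26). Prc1, which crosslinks the microtubules of the midzone, read 5.23, 4.87 and 4.88 in WT 4 to 6 and 5.66, 4.88 and 6.33 in Ikzf2-/-, where array 2 lay inside the WT range. Among set 1 arrays it read 5.39, 5.67 and 5.67 in WT, 5.12, 5.99 and 5.54 in Ikzf4-/- and 5.67, 6.40 and 6.48 in dKO. The difference was 0.63 (SE 0.31) in Ikzf2-/-, not past the unadjusted threshold, and 0.63 (SE 0.14) in dKO against Ikzf4-/-, past it. Dlgap5, a spindle protein, showed 0.37 (SE 0.29) and 0.34 (SE 0.10), the second past it, and Hmmr, below the filter, 0.85 and 0.28.

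Top2a and Mki67, which coats mitotic chromosomes, had a median difference of 0.94 in Ikzf2-/-, 0.58 for dKO over WT and 0.83 for dKO over Ikzf4-/-, the largest of the 9 roles in each. Top2a read 7.53, 7.34 and 6.89 in WT 4 to 6 and 8.03, 7.56 and 8.60 in Ikzf2-/-, and Ikzf2-/- 2 was just above WT 4. In set 1 it read 7.72, 7.97 and 7.27 in WT, 6.94, 8.0 and 7.32 in Ikzf4-/- and 7.58, 8.64 and 8.43 in dKO, where dKO 1 lay within the WT range. The difference was 0.81 (SE 0.33) in Ikzf2-/- and 0.56 (SE 0.33) in dKO against WT, the second not past the unadjusted threshold. Top2a is the 1 member with 2 probe sets of its own, of which the brighter is used, and its size depends on that choice. As the mean of both, the difference was 0.52 (SE 0.17) in Ikzf2-/-, 0.42 (SE 0.17) in dKO against WT, there past the unadjusted threshold, and 0.39 (SE 0.10) in dKO against Ikzf4-/-. In Ikzf4-/- it read -0.24 from the brighter probe set and 0.034 from the mean, neither past the threshold.

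Cytokinesis was represented by Racgap1, the partner of Kif23 in centralspindlin, Ect2, which switches on RhoA at the cleavage furrow, and anillin (Anln). Racgap1 read 5.56, 5.34 and 5.27 in WT 4 to 6 and 5.90, 6.00 and 6.53 in Ikzf2-/-, without overlap (0.76, SE 0.15, adjusted p = 0.07). Racgap1 in set 1 read 6.24, 6.32 and 6.33 in WT, 5.79, 6.12 and 5.94 in Ikzf4-/- and 6.25, 6.62 and 6.38 in dKO. The Ikzf4-/- arrays were all below the WT arrays (-0.34, SE 0.15, adjusted p = 1), and the paired differences of dKO from them were close to each other at 0.46, 0.50 and 0.44 (0.47, SE 0.075, adjusted p = 0.199). Ect2 read 4.69, 4.76 and 4.53 in WT 4 to 6 and 4.97, 4.63 and 5.22 in Ikzf2-/-, and 4.73, 4.69 and 4.25 in WT 1 to 3, 4.26, 4.93 and 4.58 in Ikzf4-/- and 4.69, 5.94 and 4.90 in dKO. Only the dKO group lay above the filter, through dKO 2, and the difference from WT was 0.62 (SE 0.27). Anln, below the filter, was 0.56 higher in Ikzf2-/- and 0.47 higher in dKO than in Ikzf4-/-.

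**Figure D4:**
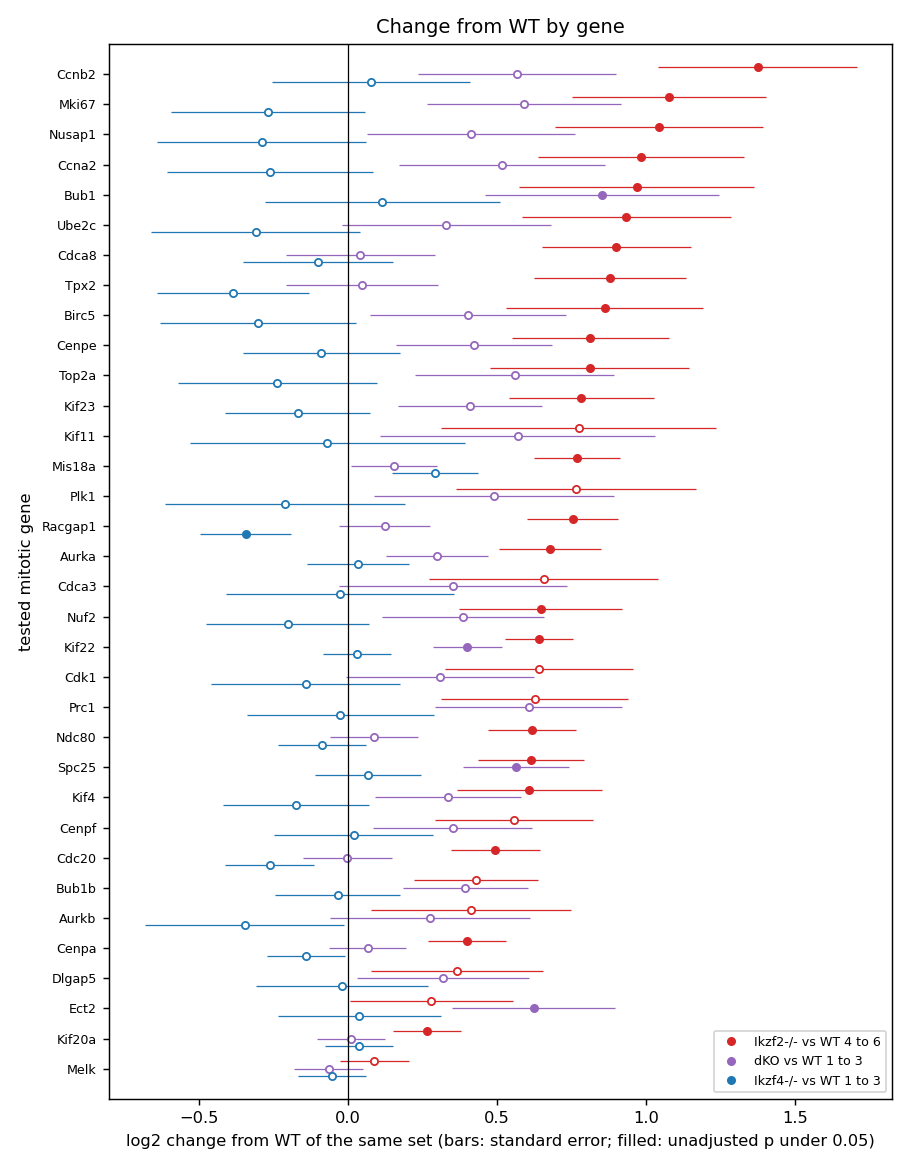
Log2 difference from the WT arrays of the same set (x axis, bars are standard errors) for each of the 34 tested mitotic genes (y axis, ordered by the difference in Ikzf2-/-) in Ikzf2-/- (red), dKO (purple) and Ikzf4-/- (blue); filled points had an unadjusted p under 0.05. Red points run from 0.09 (Melk) to 1.38 (Ccnb2), 23 of them filled, purple ones are filled for 4 genes and blue ones for Racgap1 alone.

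Whether the difference from WT was itself larger in Ikzf2-/- than in dKO was tested as the difference of both within-set differences. It was positive for 33 of 34 tested members, with a median of 0.32 against 0.015 for all genes. Limma called 0 at adjusted p, where 0% of all genes were called, and 6 were higher and 0 lower at the unadjusted threshold, where 4.92% of all genes were higher. The 6 were Mis18a (0.61, SE 0.20), Racgap1 (0.63, SE 0.22), Ndc80 (0.53, SE 0.21), Cdca8 (0.86, SE 0.36), Cdc20 (0.50, SE 0.21) and Tpx2 (0.83, SE 0.36). With the B cell marker mean as a covariate the count was 0 (4.72% of genes) and the median -0.012. The count was 2 of 34 without Ikzf2-/- 3 (4.57% of genes, median 0.077) or without dKO 1 (4.90%, median 0.15), near the share of all genes. It was 3 of 34 without WT 2 (4.26%) or without WT 6 (3.34%). The median was 0.50 without dKO 2 and 0.56 without Ikzf2-/- 2. Both sets have arrays and WT cells of their own, and what differs between the sets besides genotype cannot be told apart from it here.

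Other genes of the mitotic programme were read from a list of 92, of which 65 were tested. In Ikzf2-/- 32 were higher at the unadjusted threshold and 0 lower (median 0.34), in dKO against Ikzf4-/- 19 and 0 (median 0.16), in dKO against WT 4 and 0 (median 0.16), and in Ikzf4-/- 0 and 0 (median -0.037). The higher genes were 49.2%, 29.2%, 6.15% and 0% of the 65 in these comparisons, beside 10.9%, 3.98%, 2.39% and 1.16% of all genes, of which 5.45%, 3.1%, 1.99% and 1.02% were lower. Cks1b, a small Cdk-binding protein, was 0.86 (SE 0.19) higher in Ikzf2-/-, the cohesin protector Cdca5 0.90 (SE 0.24) and the spindle protein Tacc3 0.70 (SE 0.22). In dKO against Ikzf4-/- the smallest p were those of Arhgap11a (0.65, SE 0.11), the lamin gene Lmnb1 (0.37, SE 0.083) and Spdl1, which brings dynein to kinetochores (0.41, SE 0.09). Spdl1 was also higher in dKO against WT (0.44, SE 0.11).

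Of the 46 tested DNA replication genes, 10 were higher and 0 lower in Ikzf2-/- (median 0.20), 14 and 0 in dKO against Ikzf4-/- (0.17), 3 and 0 in dKO against WT (0.12) and 0 and 1 in Ikzf4-/- (-0.055), all at the unadjusted threshold. As shares, 21.7%, 30.4%, 6.52% and 0% of the 46 were higher, beside the 10.9%, 3.98%, 2.39% and 1.16% of all genes, and the 1 lower gene in Ikzf4-/- is 2.17% beside 1.02%. Cyclin E2 (Ccne2) was 0.59 (SE 0.14) higher in Ikzf2-/- and 0.30 (SE 0.14) in dKO, and Rrm2, a subunit of ribonucleotide reductase, was 0.84 (SE 0.17) higher in dKO than in Ikzf4-/-. Of 21 transcription factors that act on mitotic promoters, 2 were higher and 1 lower in Ikzf2-/-, or 9.52% and 4.76%, which is below the 10.9% and 5.45% of all genes and so no result about these factors. The 3 were the NF-Y subunit Nfyb (0.26, SE 0.092), the E2F partner Tfdp1 (0.31, SE 0.13) and the pocket protein Rbl1 (-0.18, SE 0.076). In dKO against Ikzf4-/- 4 were higher (19%, beside 3.98% of all genes) and 0 lower, among them E2f8 (0.59, SE 0.13), Tfdp1 (0.20, SE 0.059) and Foxm1 (0.39, SE 0.13). Of 14 Cdk inhibitor and quiescence genes, 3 were higher (21.4%, beside 10.9%) and 0 lower in Ikzf2-/- and 1 (7.14%, beside 3.98%) and 0 in dKO against Ikzf4-/-. The inhibitor Cdkn2c (p18) was higher in both, by 0.79 (SE 0.23) and 0.43 (SE 0.12). The quiescence factor Klf2 was 0.21 (SE 0.092) higher in Ikzf2-/- and stood at -0.15 (SE 0.092) in dKO, which did not reach the threshold.

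Members with and without CHR letters had medians of the same sign in each comparison. In Ikzf2-/- the 24 tested members with CHR letters had a median of 0.67 with 16 higher at the unadjusted threshold, and the 5 without had a median of 0.81 with 4 higher. In dKO against Ikzf4-/- the medians were 0.48 and 0.59, in dKO against WT 0.37 and 0.40, and in Ikzf4-/- against WT -0.078 and -0.20. Among the 523 tested genes outside all cell cycle lists whose windows hold both CHR and CCAAT letters, the median was 0.027 in Ikzf2-/- and 0.0032 in dKO against Ikzf4-/-, and for the 4305 with neither it was 0.018 and -0.0021. These are descriptions, with no test.

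Markers of other cells moved with some of these groups. In Ikzf2-/- against WT 4 to 6, 12 of 12 tested B cell markers were higher in mean (median 0.95, 0 past the unadjusted threshold) and 9 of 9 neutrophil markers (median 1.88, 6 past it). The B cell mean was 5.46 to 5.70 in WT 4 to 6 and 6.22, 5.24 and 7.88 in Ikzf2-/- 1, 2 and 3, and the neutrophil mean 4.75 to 5.20 and 5.92, 5.47 and 7.90. The B cell gene Ms4a1 (CD20) read 5.18, 5.28 and 5.05 in WT 4 to 6 and 6.62, 4.81 and 8.62 in Ikzf2-/-. The smallest p of the neutrophil markers were those of Mpo (1.01, SE 0.26), Camp (1.88, SE 0.60) and S100a8 (3.20, SE 1.21), and no neutrophil covariate was fitted. Germinal centre and plasma cell markers had a median of 0.19, with 6 of 7 higher in mean, 0 past the threshold upward and Fas past it downward (-0.22, SE 0.085). Of 4 tested macrophage and dendritic cell markers 4 were higher in mean and 2 past the threshold, Cd68 (0.45, SE 0.15) and Flt3 (0.26, SE 0.10), and Lyz2 stood at 1.52 (SE 0.76). Ikzf2-/- 2 had a B cell mean below every WT array of set 2, a neutrophil mean above every one of them and the lowest mean of the T cell and Treg markers of all 15 arrays (9.84). It exceeded all of WT 4 to 6 in 18 of 39 mitotic genes, a number without a count over all genes beside it. With Ikzf2-/- 3 and WT 1 left out 14 of 34 members were higher (8.69% of genes).

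In set 1 WT 1 stood apart, with a B cell mean of 6.88 against 4.83 in WT 2 and 4.97 in WT 3, and a neutrophil mean of 6.35 against 4.31 and 4.76. In Ikzf4-/- against these arrays 0 of 12 B cell markers (median -0.77) and 0 of 9 neutrophil markers (median -0.73, 1 past the threshold downward) were higher in mean. Of the 4 macrophage and dendritic cell markers 3 were past the threshold downward, Csf1r (-0.53, SE 0.15), Lyz2 (-2.13, SE 0.76) and Cd68 (-0.36, SE 0.15). In dKO, 11 of 12 B cell markers were lower in mean than in WT (median -0.75) and 4 of 9 neutrophil markers higher, and Cd68 (-0.41, SE 0.15), Csf1r (-0.37, SE 0.15) and Fas (-0.20, SE 0.085) were past the threshold downward. The means of the macrophage and dendritic cell markers were 4.71 to 5.02 in WT 1 to 3, 4.42 to 4.65 in Ikzf4-/- and 4.64 to 4.75 in dKO. Of the erythroid markers 1 of 4 was past the threshold downward in each knockout against its WT arrays. In dKO 0 of 2 tested CD8 T and NK cell markers were higher in mean than in WT, with 0 past the threshold. Cd8b1 read 7.04, 6.59 and 6.46 in dKO, 6.95, 7.10 and 6.85 in Ikzf4-/- and 7.09, 7.03 and 7.38 in WT. Over the 7 measured ones the group means were 4.81 in dKO, 4.88 in Ikzf4-/- and 4.79 in WT 1 to 3. In dKO and Ikzf4-/- the B cell means were alike (4.76 to 4.99 and 4.76 to 4.91), and 5 of 12 B cell markers were higher in mean in dKO. The neutrophil mean was 4.80 to 5.24 in dKO and 4.18 to 4.68 in Ikzf4-/-, with 9 of 9 higher in mean and 1 past the threshold, and of the macrophage and dendritic cell markers Lyz2 was past it upward (0.96, SE 0.34). Germinal centre and plasma cell markers stood 6 of 7 higher in mean in that comparison, with Prdm1 (0.55, SE 0.12) and Irf4 (0.25, SE 0.1), both also made by activated Treg cells, past the threshold upward and Fas (-0.22, SE 0.082) downward. Beyond the alternatives given, the part of these cells in the mitotic gene differences was not tested.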

How the data were processed

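The deposited values are log2 signals per probe set that the authors made with Affymetrix Expression Console 1.3.1 and RMA, per the submitters' processing notes, from 15 ng of RNA per array, per the labels' protocols. RMA as commonly run gives all arrays 1 distribution of values, so a shift of most genes together would not show. Exactly equal values were shared by 2286 probe sets on average between arrays within set 1, 34.4 within set 2 and 0.0741 across sets, and so each knockout was compared within its set. The sets were inferred from these values and the rule for the genes, since no label names them.

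Of 35556 probe sets, 21789 have 1 gene symbol (21698 updated by Entrez ID), 1621 several and 12146 are unlisted in the annotation given. The brightest probe set stood for a gene. Limma 3.58.1 (R 4.3.3) was fitted to 15 arrays as 5 group means with moderated variances (10 residual and 3.72 prior degrees of freedom), and p-values were Benjamini-Hochberg adjusted over 10964 genes. For dKO against Ikzf4-/- the 9 arrays of set 1 were fitted with the replicate number as a block, since the rule for the genes pairs these groups by number. Deviations of same-numbered arrays from their group means had r = 0.43, 0.20 and 0.27 over all genes. Over the tested members r was 0.71, 0.44 and -0.14. For WT and Ikzf4-/- arrays r was 0.14, 0.22 and 0.30 over all genes, and that comparison was fitted without the block and is given with it too. For WT and dKO arrays r was 0.071, 0.045 and 0.17. Arrays of unlike number were not correlated for comparison, and no label says what the numbers mark. The fit was tested on simulated data.

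Levels in every array are given for the brightest gene of each role and the 4 smallest p of each comparison; other members were named for their role. Members, lists and tests were chosen with earlier results of these data known. The number of arrays limits the precision. Alternatives were the filter, scaling, probe summary, array weights, B cell and Eif2s3y covariates, pooled WT arrays, the block and leaving out each array.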

Additional observations from a re-analysis of the deposited data

Results flagged for a closer look

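Over the 6 WT arrays, 49 quantities were checked (39 members, 9 role means and the mean over all members) for an array whose gap to its nearest neighbour takes more of the whole range than Dixon's 95% critical value, which chance gives in about 1 of 20 groups. The kinetochore gene Spc25 read 4.56 on WT 6, below the nearest value of 4.97, a gap of 0.663 of the range. The microtubule-shortening kinesin gene Kif2c read 4.60 on WT 2, above the nearest value of 4.35, a gap of 0.738. The WT arrays come from both sets.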

How the results depend on the processing

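Of 512 alternative values of counts, medians and means over the members, 461 kept their direction and lay within 1.5 times or 1 SD of the main value, 48 moved and 3 medians turned sign. Shares of all genes at adjusted p were not taken for the alternatives that follow. In Ikzf2-/- against WT, adjusted p called 3 members after a further quantile normalization and 3 with array weights, and 0 to 7 when 1 array was left out. Percentages in brackets below are shares of all genes higher at the unadjusted threshold. The 23 members of this comparison higher there became 15 with the B cell covariate (9.45%) and 12 with pooled WT arrays (2.71%). They were 14 without both arrays high in B cell markers (8.69%), an alternative chosen after seeing the data. With 1 array left out they ran from 13 (8.80%) to 31 (18%). In Ikzf4-/- the 1 lower member became 0 after quantile normalization, median centring, the B cell covariate and pooling. The count was 2 with array weights and 0 to 3 with 1 array left out, and shares of all genes lower were not taken there. In Ikzf4-/- the 0 higher members became 1 with array weights (3.03%), the B cell covariate (2.63%), pooling (11.6%) or the replicate block (2.64%). The same count held without both B-cell-high arrays (1.86%). With 1 array left out they were 0 to 1, the latter beside 1.33% to 1.57% of genes. Its median turned to 0.015 with the B cell covariate and 0.15 with pooling, and Racgap1, at -0.34, read 0.11 with pooling. In dKO against WT the 4 higher members became 1 with a filter at the 60th percentile (2.44%) and 17 with the B cell covariate (4.70%). They became 2 with Eif2s3y (3.18%), 22 with pooling (15.3%) and 12 with the replicate block (4.82%), though the rule does not pair these groups. With 1 array left out they ran from 2 (1.33% or 1.82%) to 15 (2.17%). In dKO against Ikzf4-/- the 23 became 10 with Eif2s3y (3.31%) and 8 with no replicate block (1.79%). With 1 array left out they ran from 11 (3.06%) to 27 (3.99%). For the difference of both differences the 6 became 0 with the B cell covariate (4.72%), where the median turned to -0.012. The count was 1 without both B-cell-high arrays (3.53%). With 1 array left out it ran from 2 (4.57% or 4.90%) to 8 (9.01%). The cause was not tested. Medians with 1 array left out ran from 0.45 to 0.91 in Ikzf2-/-, -0.31 to -0.0095 in Ikzf4-/-, 0.20 to 0.60 in dKO against WT, 0.37 to 0.62 against Ikzf4-/- and 0.077 to 0.56 for the difference of differences.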
